A study of Mus musculus with 9 samples.

Results

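The 10 genes described here encode ligands of the TGF beta and activin family and proteins that bind, hold or restrain them. They are Tgfb1, Tgfb2, Tgfb3, Inhba, Inhbb, Inhbc, Inhbe, Fst, Ltbp2 and Smad7, taken by gene symbol from a table of 24532 mouse genes. The set was chosen with earlier results of these data known, so its counts beside the shares of all genes are a description. All 10 were in the table and all 10 passed the filter on low counts, which left 14731 genes for the tests.

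TGF beta is secreted in a latent form, bound to its own propeptide and to matrix proteins, and acts once it is released. TGF beta and activin dimers bind paired receptor kinases, which phosphorylate the transcription factors Smad2 and Smad3. In the injured liver, TGF beta is known for turning stellate cells into matrix-producing myofibroblasts, while the inhibin beta subunits form activins, some of which are made mainly by hepatocytes. Follistatin, the product of Fst, captures activin outside the cell, and Smad7 blocks the receptors from within.

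Messenger RNA of whole liver from wild-type C57BL/6 mice was sequenced in 9 libraries, 3 in each of 3 groups, and every mouse had received thioacetamide (TAA), a hepatotoxin that causes fibrosis, by intraperitoneal injection for 10 weeks at rising doses. Mice of the first group were also given recombinant human cytoglobin (rhCYGB), a haem protein, at 2 mg/kg into the tail vein during the last 2 weeks (replicates 17, 18 and 19). In the second group that dose covered the final 5 weeks (replicates 23, 27 and 28), and the TAA group had saline instead (replicates 12, 13 and 14). Livers without thioacetamide were not analysed here, so a value in TAA is a level in injured liver. Age and sex are not in the labels, which also leave unsaid whether every replicate was its own mouse, and the p-values cover the spread among the libraries, possibly a technical one.

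Library totals ran from 55655727 to 87289945 estimated reads, the highest being that of replicate 18. Replicates 17, 18 and 23 lay furthest out on the first principal component (33.6, 37.3 and -56.3, with 39.8% of the variance). At 2 weeks the log2 change also followed transcript length across genes (Spearman rho -0.42), which genes, not being independent replicates, show only as a description. The 10 hepatocyte markers summed to 112912 to 153036 CPM (reads scaled to library size) in 2-week livers, 112114 to 152447 CPM in 5-week livers and 101912 to 116490 CPM in TAA livers. Values of each gene are given below as CPM scaled by the trimmed mean of M values (TMM), in the replicate order just listed. Changes are log2 fold changes from edgeR's quasi-likelihood test with an approximate standard error (SE), both courses are set against the same TAA libraries, and a gene is called at a Benjamini-Hochberg adjusted p under 0.05 over all genes tested. Directions are relative to the TMM scale: scaling by library totals alone placed the median of all genes at -0.36 at 2 weeks and -0.21 at 5 weeks, against -0.03 and 0.01 with TMM.

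Per transcript length, the most abundant of these mRNAs was Inhbc, the activin C subunit made by hepatocytes, at 27.6 ± 2.76, 26.9 ± 7.61 and 33.4 ± 4.46 FPKM in 2-week rhCYGB, 5-week rhCYGB and TAA livers (SD, n = 3 each). Inhbe, the activin E subunit and likewise a hepatocyte product, followed at 5.25 ± 1.10, 11.5 ± 4.84 and 11.98 ± 3.97 FPKM. Tgfb1, the ligand most closely tied to fibrosis, had rank 3 in all 3 groups, at 5.17 ± 1.01, 3.98 ± 0.820 and 7.16 ± 0.345 FPKM. In TAA livers the order then ran through Ltbp2 (4.33 ± 1.31 FPKM), Tgfb3 (2.95 ± 0.593), Smad7 (2.93 ± 0.340), Fst (2.48 ± 0.727), Inhba (1.48 ± 0.327) and Inhbb (0.921 ± 0.335) to Tgfb2 (0.347 ± 0.0585). From Ltbp2 down to Inhbb the libraries of neighbouring genes overlapped in TAA livers, as did those of Inhbe and Tgfb1, while Inhbc lay wholly above Inhbe, Tgfb1 above Ltbp2, and Inhbb above Tgfb2. With rhCYGB the middle of the order changed: Fst had rank 4 and Tgfb3 rank 7 at 2 weeks, and Smad7 had rank 4 and Tgfb3 rank 7 at 5 weeks. FPKM values are not TMM-scaled and carry the shift between groups given above.

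**Figure D1:**
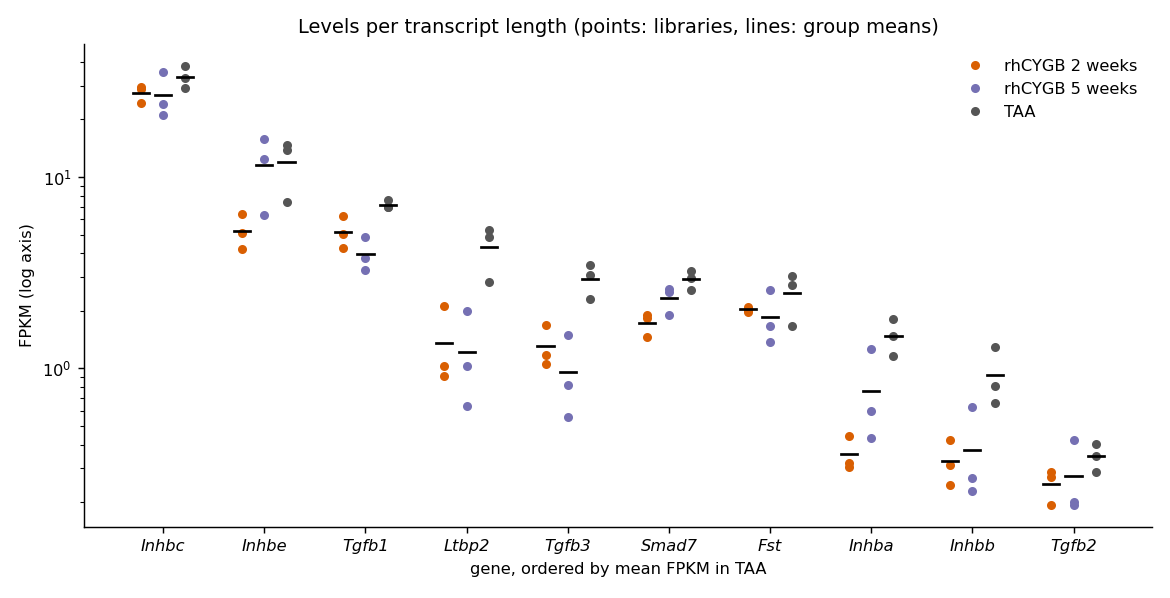
FPKM on a log axis for each of the 10 genes, ordered by the mean in TAA, with a point for each library and a line for each group mean (n = 3). Inhbc lies highest, from 21.2 to 38.1 FPKM, and Tgfb2 lowest, from 0.194 to 0.425 FPKM.

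The activin A subunit gene is Inhba (gene ID 16323, mm10 chromosome 13, 16011851 to 16031609). Among the 10 genes, it alone was called by edgeR in the main TMM-scaled fits of all libraries. It had 2.36, 2.31 and 2.99 CPM in 2-week rhCYGB livers, 8.39, 3.07 and 3.76 CPM in 5-week rhCYGB livers and 6.79, 9.94 and 8.49 CPM in TAA livers. All 2-week libraries lay below all TAA libraries, whereas at 5 weeks replicate 23 lay among the TAA values and the other two lay below them. Inhba fell by 1.72 ± 0.35 on the log2 scale at 2 weeks (SE, 95% interval -2.51 to -0.93, edgeR adjusted p = 0.0375), a 3.30-fold difference. At 5 weeks its log2 change was -0.73 ± 0.34 (adjusted p = 0.285), and -1.31 without replicate 23 (adjusted p = 0.0679). The 5-week libraries lay above the 2-week libraries (log2 change 0.99 ± 0.35, adjusted p = 0.180), by 0.42 without replicate 23. The call at 2 weeks was kept in 9 of 17 alternatives and lost in 8, with adjusted p from 0.000137 to 0.158 and log2 changes from -2.05 to -0.86. It was lost on leaving out TAA replicate 12 (adjusted p = 0.0806), 13 (0.152) or 14 (0.108), 2-week replicate 17 (0.158), 18 (0.108) or 19 (0.0562), or 5-week replicate 28 (0.0578). The remaining loss came with replicates 17, 18 and 23 all left out (log2 change -1.49, adjusted p = 0.118). With the trend over transcript length removed, the change was -1.49 and the call held (adjusted p = 0.0271).

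Over the 10 genes, 1 was called lower at 2 weeks and 9 were not called, against 1.34% of all genes called lower. Their libraries lay wholly below TAA for 6 of 10 genes, against 16.3% of all genes. Those 6 were Tgfb3, Inhba, Inhbb, Inhbe, Ltbp2 and Smad7. The change at 2 weeks followed transcript length, and the shares and medians given here are not matched for it. Among the 6, Ltbp2 has 6603 bases, Inhba 6378, Smad7 4441, Inhbb 4257, Tgfb3 3385 and Inhbe 2211. Of the other 4, Tgfb2 has 5186, Fst 2618, Tgfb1 2175 and Inhbc 1976. The part of length in these counts was not tested. The median log2 change of the 10 was -0.63, against -0.03 over all genes tested. An unadjusted p under 0.05 was reached by 6 of 10, against 23.4% of all genes. DESeq2 called 2 of 10 (Inhba and Ltbp2) and 11.6% of all genes, and limma on log2(FPKM + 1), which carries the shift between groups, called 5 of 10 and 13.5% of all genes.

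**Figure D2:**
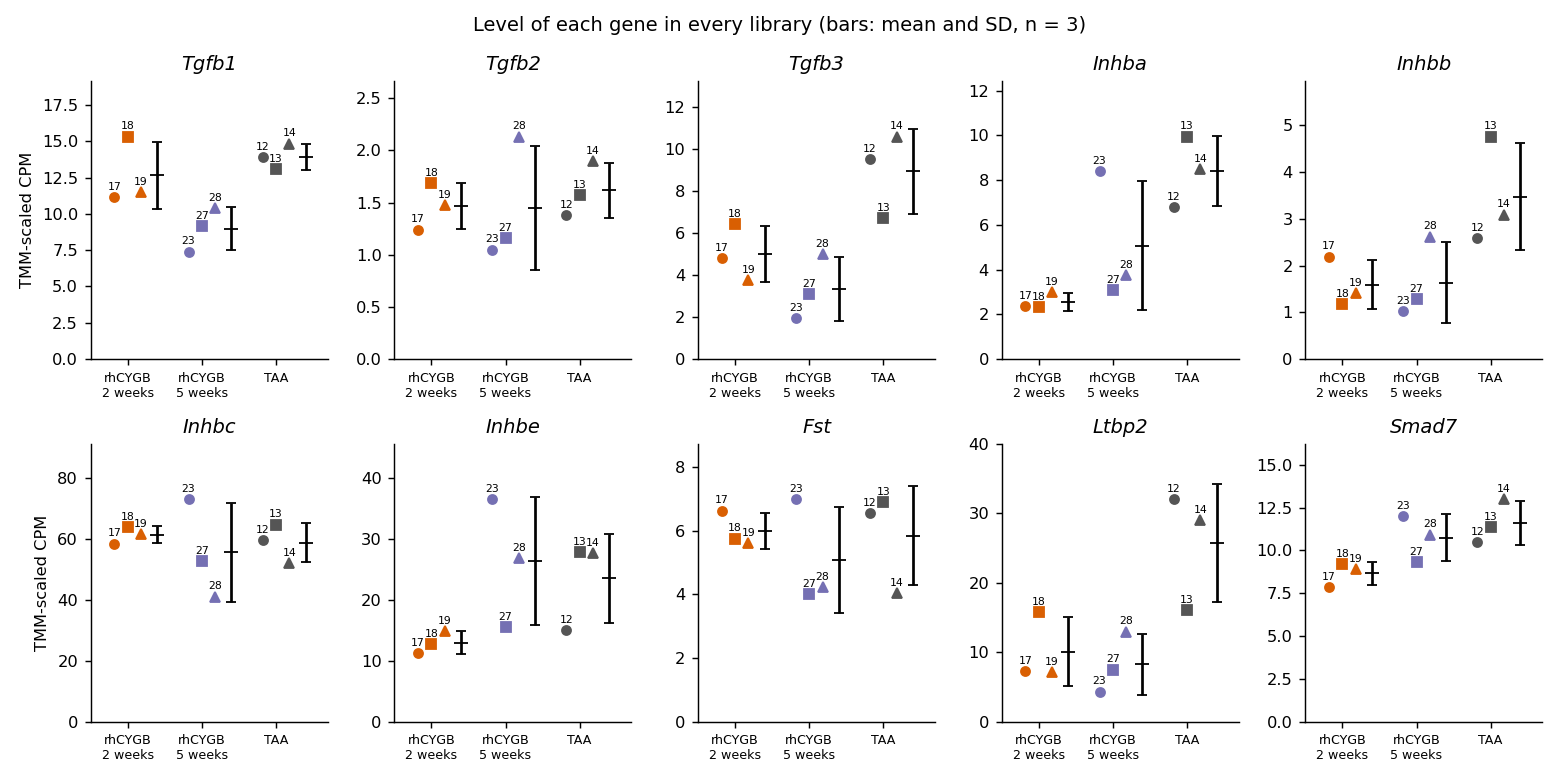
TMM-scaled CPM of each gene in every library, with one panel a gene, replicate numbers beside the points and the mean with SD (n = 3) at the right of each group; every axis starts at 0. Inhba lies between 2.31 and 2.99 CPM in the 2-week livers, and replicate 23 stands at 8.39 CPM among the 5-week livers.

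The activin B subunit gene Inhbb (gene ID 16324, mm10 chromosome 1, 119415463 to 119422248) was low throughout, with 66 to 324 reads a library. It had 2.19, 1.18 and 1.41 CPM at 2 weeks, 1.02, 1.28 and 2.62 CPM at 5 weeks and 2.58, 4.76 and 3.09 CPM in TAA. The 2-week values lay below every TAA value, and at 5 weeks replicate 28 reached into the TAA range. The log2 changes were -1.14 ± 0.40 (adjusted p = 0.133) and -1.08 ± 0.40 (adjusted p = 0.183), neither of them called.

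The hepatocyte subunits, whose genes lie side by side on chromosome 10, differed from each other at 2 weeks. Inhbe (gene ID 16326, mm10 chromosome 10, 127349402 to 127351848), whose product is a secreted liver protein linked to fat metabolism, had 11.3, 12.8 and 14.9 CPM at 2 weeks, 36.5, 15.5 and 26.9 CPM at 5 weeks and 15.05, 27.9 and 27.6 CPM in TAA. Its 2-week libraries lay below all others, by a narrow margin for replicate 19 (14.91 CPM) next to TAA replicate 12. The log2 change was -0.86 ± 0.32 at 2 weeks (adjusted p = 0.147) and 0.16 ± 0.31 at 5 weeks (adjusted p = 0.832), with no call, and the 5-week value was -0.16 without replicate 23. Inhbc (gene ID 16325, mm10 chromosome 10, 127356322 to 127370548) had 58.5, 63.9 and 61.6 CPM at 2 weeks, 73.0, 52.6 and 41.1 CPM at 5 weeks and 59.5, 64.7 and 52.1 CPM in TAA, and the groups overlapped. Its log2 changes were 0.06 ± 0.19 (95% interval -0.36 to 0.49) and -0.08 ± 0.19 (-0.51 to 0.35), and the first was -0.27 on library totals. None of the 10 hepatocyte markers was called lower at either time, and 1 (Cyp2e1) was called higher at 5 weeks, against 0.686% of all genes. At 2 weeks 6 of the 10 lay wholly above TAA, against 17.3% of all genes, and 4 did at 5 weeks, against 11.6%. The list's median was 0.34 at 2 weeks and 0.28 at 5 weeks, with 1 and 2 negative changes.

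The activin antagonist gene Fst (gene ID 14313, mm10 chromosome 13, 114452262 to 114458951) had 6.63, 5.75 and 5.60 CPM at 2 weeks, 6.99, 4.02 and 4.23 CPM at 5 weeks and 6.57, 6.90 and 4.05 CPM in TAA. The groups overlapped, with log2 changes of 0.04 ± 0.26 (95% interval -0.55 to 0.63) and -0.20 ± 0.26 (-0.79 to 0.39). Of its 3 transcript models, the same one held 59.6% to 78.6% of the FPKM in 8 libraries and 27.97% in TAA replicate 14, where the other two held more. Within each library, 4 ratios of FPKM were taken, chosen after the values were seen and tested 8 times in all. They were not corrected for the 2-week trend over transcript length. Inhba has 6378 bases and Fst 2618, Tgfb3 3385 and Tgfb1 2175, Smad7 4441, Inhbe 2211 and Inhbc 1976. Inhba was at 0.145, 0.163 and 0.219 of the Fst FPKM at 2 weeks, 0.494, 0.316 and 0.360 at 5 weeks and 0.426, 0.593 and 0.887 in TAA. The 2-week ratios lay below all others (log2 difference from TAA -1.81, exact two-sided permutation p = 0.1, the smallest that 3 against 3 libraries can give, and 0.16 adjusted over the 8 tests). The 5-week ratios overlapped TAA (log2 difference -0.66, exact permutation p = 0.2, adjusted 0.229). Inhbe over Inhbc was 0.189 ± 0.0238 at 2 weeks, 0.431 ± 0.161 at 5 weeks and 0.362 ± 0.126 in TAA (SD, n = 3 each; exact permutation p = 0.1 and 0.6, adjusted 0.16 and 0.6).

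Among the TGF beta isoforms, Tgfb3 (gene ID 21809, mm10 chromosome 12, 86056743 to 86079041) had the largest log2 differences from TAA. It had 4.81, 6.42 and 3.78 CPM at 2 weeks, 1.96, 3.09 and 4.99 CPM at 5 weeks and 9.52, 6.71 and 10.6 CPM in TAA, with both treated groups wholly below TAA. The log2 changes were -0.84 ± 0.34 (adjusted p = 0.171) and -1.42 ± 0.34 (adjusted p = 0.0716), not called by edgeR. DESeq2 called the 5-week difference (adjusted p = 0.00173), and without replicate 23 it was -1.16 by edgeR. On the opposite strand lies Ttll5, which shares 5149 bases of the gene's span but no exon bases, and whose log2 changes were 0.06 ± 0.16 and 0.25 ± 0.16. Gm48008 and Gm37804, also on that strand, share 257 and 163 exon bases with Tgfb3 and have no values of their own here, and since strand use in counting is not given, reads from them cannot be told apart from those of Tgfb3. The same limit holds for Inhbc (268 exon bases shared with Gm47200), Tgfb2 (124 with Gm29491) and Fst (115 with Gm47040), each with an opposite-strand gene without values here.

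Tgfb1 (gene ID 21803, mm10 chromosome 7, 25687002 to 25705077) had 11.2, 15.3 and 11.5 CPM at 2 weeks, 7.39, 9.18 and 10.4 CPM at 5 weeks and 13.9, 13.1 and 14.8 CPM in TAA. The 2-week libraries fell on both sides of TAA because replicate 18 exceeded all TAA libraries, while every 5-week library lay below both other groups. The log2 changes were -0.14 ± 0.17 (adjusted p = 0.646) at 2 weeks and -0.63 ± 0.17 (adjusted p = 0.0974) at 5 weeks, neither called by edgeR. DESeq2 called the change at 5 weeks (adjusted p = 0.0204). Tgfb1 made up 76.9 ± 1.90%, 77.3 ± 5.02% and 68.7 ± 3.33% of the summed FPKM of the 3 isoforms in 2-week, 5-week and TAA livers (SD, n = 3 each). Tgfb3 FPKM per Tgfb1 FPKM was 0.252 ± 0.0363, 0.231 ± 0.0704 and 0.410 ± 0.0698 in the same groups, with every treated library below TAA (exact permutation p = 0.1 and adjusted 0.16 at each time). The 2-week ratio was not corrected for the length trend.

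Tgfb2 (gene ID 21808, mm10 chromosome 1, 186622792 to 186705989) was the rarest, with 60 to 140 reads a library. It had 1.24, 1.68 and 1.48 CPM at 2 weeks, 1.05, 1.16 and 2.13 CPM at 5 weeks and 1.38, 1.57 and 1.90 CPM in TAA. The groups overlapped, with log2 changes of -0.14 ± 0.31 and -0.16 ± 0.31. In 5-week replicate 28, the highest library, all 140 reads were assigned to the transcript model of 5116 bases, while the other 8 libraries held 0 to 2 reads there and the rest on the model of 5200 bases.

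Ltbp2 (gene ID 16997, mm10 chromosome 12, 84783212 to 84876495) encodes a microfibril protein of the latent TGF beta binding family, which itself does not bind latent TGF beta. It had 7.27, 15.8 and 7.12 CPM at 2 weeks, 4.35, 7.52 and 12.97 CPM at 5 weeks and 32.0, 16.1 and 29.0 CPM in TAA. Both treated groups lay below TAA, although 2-week replicate 18 and TAA replicate 13 nearly met. The log2 changes were -1.35 ± 0.44 (adjusted p = 0.113) and -1.63 ± 0.45 (adjusted p = 0.0974), not called by edgeR and called by DESeq2 (adjusted p = 0.0177 and 0.00356). Without 2-week replicate 18 the first was -1.84, and without 5-week replicate 23 the second was -1.34. D030025P21Rik, an antisense gene that overlaps 764 exon bases of Ltbp2, averaged 0.0203 CPM.

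Smad7 (gene ID 17131, mm10 chromosome 18, 75367365 to 75395934), a target of TGF beta that feeds back on its receptors, had 7.87, 9.18 and 8.91 CPM at 2 weeks, 12.003, 9.31 and 10.9 CPM at 5 weeks and 10.5, 11.4 and 12.98 CPM in TAA. The 2-week libraries lay below all others, and the 5-week libraries overlapped TAA. The log2 changes were -0.42 ± 0.15 (adjusted p = 0.132) and -0.11 ± 0.15 (adjusted p = 0.735), neither called. Smad7 FPKM per Tgfb1 FPKM was 0.603 ± 0.168 at 5 weeks and 0.408 ± 0.0337 in TAA (SD, n = 3 each), with all 5-week ratios above TAA (log2 difference 0.53, exact two-sided permutation p = 0.1, adjusted 0.16). At 2 weeks it was 0.339 ± 0.0431, overlapping TAA (exact permutation p = 0.2, adjusted 0.229).

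**Figure D3:**
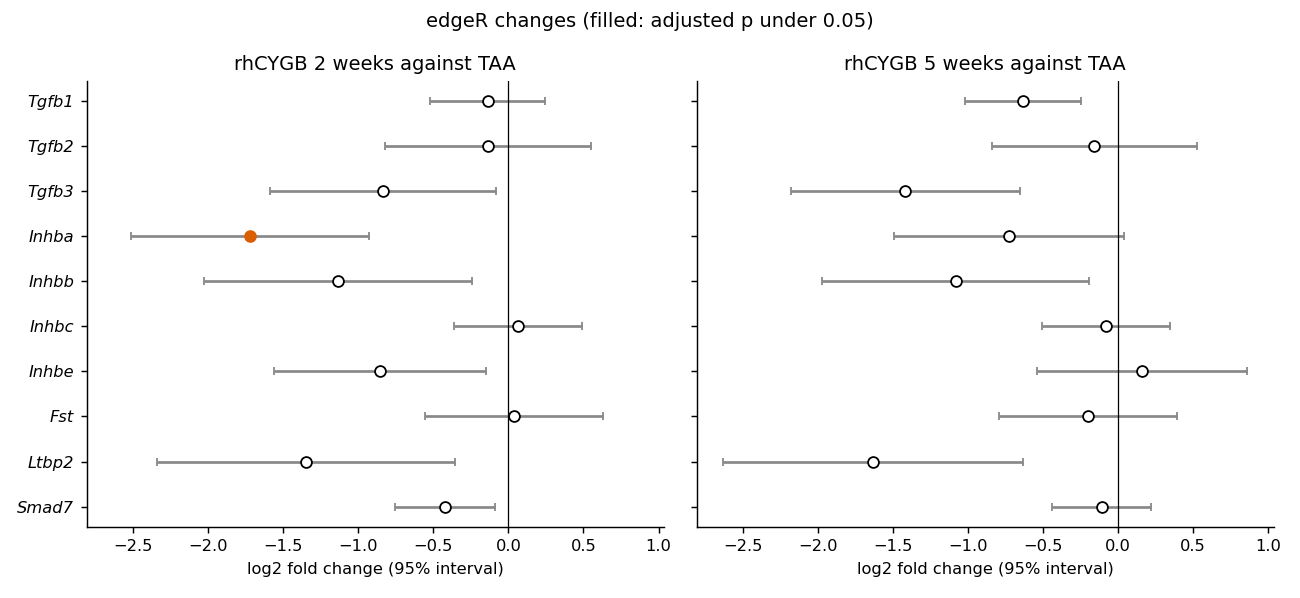
Log2 fold changes by edgeR with 95% intervals for rhCYGB at 2 weeks (left) and 5 weeks (right) against TAA, with filled points for genes called at an adjusted p under 0.05. Inhba at 2 weeks is the only filled point, and the intervals of Inhbc, Fst and Tgfb2 include 0 at both times.

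After 5 weeks, 0 of 10 genes were called by edgeR, against 0.604% of all genes called lower and 0.686% called higher. An unadjusted p under 0.05 was reached by 4 of 10 (Tgfb1, Tgfb3, Inhbb and Ltbp2), against 19.2% of all genes. DESeq2 called Tgfb1, Tgfb3 and Ltbp2 and 8.4% of all genes, and limma on log2(FPKM + 1) also called 3 of 10 and 6.8% of all genes. The 5-week libraries lay wholly below TAA for those 3 genes, against 13.4% of all genes. The median log2 change of the 10 was -0.42, against 0.01 over all genes.

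Between 5 weeks and 2 weeks, 0 of 10 genes were called by edgeR, against 0.0204% of all genes. An unadjusted p under 0.05 was reached by 3 of 10 (Tgfb1, Inhba and Inhbe), against 23.2% of all genes. The 5-week libraries lay wholly above the 2-week libraries for Inhba, Inhbe and Smad7, against 10.9% of all genes, and wholly below for Tgfb1, against 10.2%. Inhbe stood 1.02 ± 0.32 higher on the log2 scale (adjusted p = 0.175), a difference that DESeq2 called (adjusted p = 0.0356). Smad7 stood 0.31 ± 0.15 higher (adjusted p = 0.231) and Tgfb1 0.49 ± 0.17 lower (log2 change -0.49, adjusted p = 0.180). Without replicate 23 the differences were 0.71 for Inhbe, 0.22 for Smad7 and -0.37 for Tgfb1. DESeq2 called 1 of 10 and 5.93% of all genes, and limma on log2(FPKM + 1) called 0 of 10 and 0.0339% of all genes. Without replicate 27, edgeR called Inhba (log2 change 1.254, adjusted p = 0.0432) and Inhbe (1.29, adjusted p = 0.0410). That fit called 1889 of all genes, against 3 with every library kept.

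With the 6 treated libraries pooled as 1 group, 0 of 10 genes were called by edgeR, against 1.13% of all genes called lower. An unadjusted p under 0.05 was reached by 4 of 10, against 17.8%, and DESeq2 called 3 of 10 and 8.53% of all genes, limma on log2(FPKM + 1) 5 of 10 and 11.1%. The treated libraries lay wholly below TAA for 2 of 10, Tgfb3 and Ltbp2, against 6.73% of all genes. The log2 change of Tgfb3 was -1.10 ± 0.31 (adjusted p = 0.0971) and that of Ltbp2 -1.48 ± 0.36 (adjusted p = 0.0642). Without replicate 23, edgeR called Tgfb3, Ltbp2 and Inhba lower (log2 changes -0.97, -1.35 and -1.55), and without replicate 18 it called Ltbp2 (-1.71). Those fits called 662 and 258 of all genes, against 295 with every library kept. Without TAA replicate 12, 13 or 14 the pooled fit called 0 of all genes.

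Across the 9 libraries the 10 genes fell into sets whose levels followed each other. The correlations are a description over 9 points, and all genes of a library share its depth and cell composition. Pearson's r of log2 CPM was 0.96 for Tgfb3 with Ltbp2, 0.92 for Tgfb1 with Tgfb3 and 0.84 for Tgfb1 with Ltbp2, and 0.95, 0.89 and 0.93 in the same order for deviations from the group means. All 3 genes were highest in replicate 18 among the 2-week livers, lowest in 23 and highest in 28 among the 5-week livers, and lowest in replicate 13 among the TAA livers. Another set held Inhba, Inhbe and Smad7, with r of 0.89 for Inhbe with Smad7, 0.87 for Inhba with Smad7 and 0.78 for Inhba with Inhbe (0.87, 0.67 and 0.84 for deviations from the group means). These were highest in replicate 23 and lowest in 27 among the 5-week livers, and lowest in replicate 12 among the TAA livers. Leaving out the 2 libraries farthest from the median of the first gene of each pair gave 0.71 to 0.93 over these 6 pairs. Inhbc and Fst gave 0.79.

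**Figure D4:**
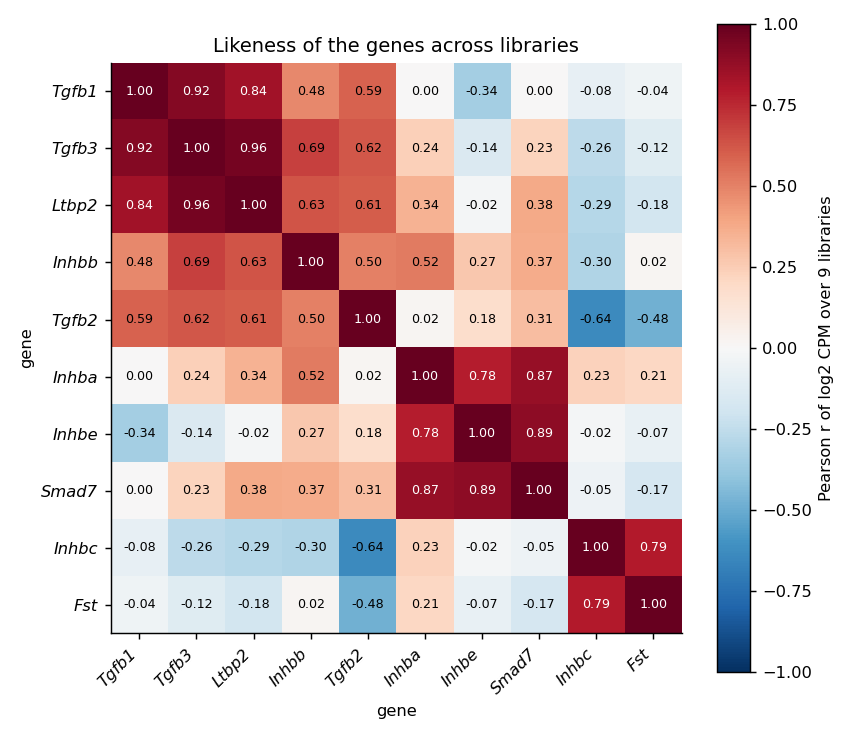
Pearson's r of log2 CPM over the 9 libraries for each pair of the 10 genes, from -1 (blue) to 1 (red). Tgfb1, Tgfb3 and Ltbp2 form a red block at the upper left, Inhba, Inhbe and Smad7 another near the centre (0.78 to 0.89), and Inhbc with Fst a pair at the lower right (0.79).

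The genes outside the set with the most similar levels, among 12404 genes averaging at least 1 CPM, were chosen by Pearson's r alone. For Tgfb3 they were Ptrf, a coat protein of caveolae (r = 0.98), P3h4 (0.97) and Pdgfrb, the PDGF receptor of stellate cells (0.97). For Ltbp2 they were Nkd2 (0.99), Col6a2, a chain of type VI collagen (0.99), and Pdgfrb again (0.99). For Tgfb1 they were Six5 (0.98), Arid5a (0.97) and Cx3cl1 (0.97). Inhba was followed most closely by Cep170, a centrosome protein (0.99), Ep400 (0.98) and Ctnnal1 (0.97), Inhbe by genes that include Surf6 (0.96) and Ppfibp1 (0.96), and Smad7 by Kctd9 (0.95), Ccdc125 (0.94) and Cenpi (0.94). The highest r was 0.95 for Fst (Acnat1), 0.91 for Inhbc (Sh3pxd2a), 0.96 for Inhbb (Tmem39a) and 0.94 for Tgfb2 (Rapgef3).

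Promoters are shown for the set of Tgfb1, Tgfb3 and Ltbp2 and the set of Inhba, Inhbe and Smad7, whose members moved together, where RefSeq's promoter table (GRCm38.p6, the assembly also called mm10) holds the gene. The window of Inhbc, which followed Fst, is not shown. Of the 10 genes, 7 matched the table. Each window runs from 250 bases before to 50 bases after the annotated start, 5′ to 3′ on the gene's strand, with capitals marking a matched motif. Inhba is chr13:16011601-16011900 on the plus strand, Inhbe chr10:127351799-127352098 on the minus strand, Tgfb1 chr7:25686752-25687051 on the plus strand and Ltbp2 chr12:84876442-84876741 on the minus strand.
Inhba: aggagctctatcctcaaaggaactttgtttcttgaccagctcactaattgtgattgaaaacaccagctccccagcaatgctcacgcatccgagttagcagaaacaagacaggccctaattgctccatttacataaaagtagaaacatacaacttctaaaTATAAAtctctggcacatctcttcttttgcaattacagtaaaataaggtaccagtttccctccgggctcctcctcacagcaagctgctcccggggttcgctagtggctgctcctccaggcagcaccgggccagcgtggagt
Inhbe: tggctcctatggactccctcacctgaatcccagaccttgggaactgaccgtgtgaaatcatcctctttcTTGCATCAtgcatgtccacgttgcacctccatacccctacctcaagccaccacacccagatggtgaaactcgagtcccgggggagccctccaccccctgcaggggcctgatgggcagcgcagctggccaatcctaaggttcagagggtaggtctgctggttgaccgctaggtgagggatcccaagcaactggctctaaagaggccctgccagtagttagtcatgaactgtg
Tgfb1: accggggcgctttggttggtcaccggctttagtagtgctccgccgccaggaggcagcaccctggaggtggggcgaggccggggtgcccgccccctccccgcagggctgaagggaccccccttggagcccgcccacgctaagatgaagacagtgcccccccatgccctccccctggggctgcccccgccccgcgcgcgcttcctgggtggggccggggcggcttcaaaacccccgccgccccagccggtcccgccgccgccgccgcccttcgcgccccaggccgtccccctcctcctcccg
Ltbp2: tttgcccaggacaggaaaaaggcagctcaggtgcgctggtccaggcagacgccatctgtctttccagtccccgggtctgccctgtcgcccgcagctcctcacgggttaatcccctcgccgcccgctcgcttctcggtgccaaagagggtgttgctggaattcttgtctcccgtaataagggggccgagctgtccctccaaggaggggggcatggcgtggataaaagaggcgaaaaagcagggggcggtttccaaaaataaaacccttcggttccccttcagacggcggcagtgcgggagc
The motifs searched were the TATA box TATAAA on the gene's strand, and on both strands AP-1 (TGANTCA), a C/EBP-ATF composite site (TTGCATCA), a Smad palindrome (GTCTAGAC), CRE (TGACGTCA) and an E-box (CACGTG). None of these overlaps another in the windows shown. Inhba held TATAAA with its first base at -91 from the start, a motif found in 8.32% of 32851 promoters. Inhbe held TTGCATCA at -181, a motif found in 0.895% of promoters. Tgfb1 and Ltbp2 held none of the 6, of which AP-1 occurs in 7.81% of promoters, the Smad palindrome in 0.213%, CRE in 1.79% and the E-box in 7.15%. The windows hold 47.7% G and C in Inhba, 57.3% in Inhbe, 77.0% in Tgfb1 and 61.0% in Ltbp2. A match describes these letters and not a bound factor.

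Other genes of the pathway were counted in 5 lists that exclude the 10 genes, with 87 of 89 symbols in the table. Among genes that TGF beta or BMP induces, 5 of 20 tested fell at 2 weeks and 15 were not called, against 1.34% of all genes called lower, and 5 fell and 15 were not called at 5 weeks, against 0.604%. DESeq2 called 9 lower at 2 weeks and 12 at 5 weeks, against 11.6% and 8.4% of all genes called in either direction. With limma on log2(FPKM + 1) 12 were called at each time, against 13.5% and 6.8%. The edgeR counts rested on single libraries. At 2 weeks the count was 0 without replicate 13, 14, 17 or 18, 1 without 12, 2 without 19 or 28, 6 without 27 and 10 without 23. At 5 weeks it was 2 without replicate 27 and 0 on leaving out any other library or with only the 2 groups in the fit. Those that fell at both times included Acta2, the actin of myofibroblasts, Col1a2, a chain of type I collagen, and Tnc, a matrix glycoprotein. Their calls at 2 and 5 weeks were kept in 9 and 7 of 17 alternatives for Acta2, in 7 and 4 for Col1a2 and in 7 and 4 for Tnc, with a negative log2 change under all 17. With the length trend removed at 2 weeks, Col1a2 (adjusted p = 0.0692) and Tnc (adjusted p = 0.0777) were not called. The list's median log2 change was -1.14 at 2 weeks and -1.25 at 5 weeks. At 2 weeks it was -1.11 with the length trend removed. With both courses pooled 8 of 20 fell, against 1.13% of all genes called lower, and the pooled fit called 0 of all genes without TAA replicate 12, 13 or 14. With replicates 17, 18 and 23 all left out, no gene of the 20 was called by edgeR at either time, the medians being -1.67 and -1.03.

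Of 13 genes of latency, activation and processing, 2 fell at 2 weeks (Thbs1 and Fbn1, median -0.37) and 2 at 5 weeks (Thbs1 and Fbn2, median -0.33), with 11 not called each time, against the same shares of all genes called lower (1.34% and 0.604%). The count at 2 weeks was 0 without replicate 12, 13, 14, 17 or 18 and 1 without 19, and at 5 weeks it was 0 on leaving out any 1 library or with only the 2 groups in the fit. The Thbs1 call was kept in 11 of 17 alternatives at 2 weeks and 6 at 5 weeks, and that of Fbn1 in 8 at 2 weeks. With the length trend removed at 2 weeks, Thbs1 was called (adjusted p = 0.0372) and Fbn1 was not (adjusted p = 0.103). The list's median was then -0.23. Fbn2, a fibrillin of microfibrils, was at 1.05 ± 0.493 CPM at 5 weeks and 3.86 ± 0.427 CPM in TAA (log2 change -1.87 ± 0.32, adjusted p = 0.0394), and kept its call in 6 of 17 alternatives. The 17 other ligands and secreted antagonists had a median of -0.23 at 2 weeks, and of -0.10 with the length trend removed. Of them, 1 fell at 2 weeks and 16 were not called, against 1.34% of all genes called lower. This was Fstl1, a secreted relative of follistatin, at 19.6 ± 5.78 CPM and 52.0 ± 3.96 CPM in TAA (log2 change -1.41 ± 0.33, adjusted p = 0.0497), called in 6 of 17 alternatives and not on leaving out any TAA or 2-week library or replicate 28, or with the length trend removed (adjusted p = 0.0665). At 5 weeks edgeR called 0 of 17 (1.29% of all genes), and 4 had an unadjusted p under 0.05 (19.2%). DESeq2 called 2 (8.4%) and limma on log2(FPKM + 1) called 2 (6.8%), and the list's median was -0.13. With replicates 17, 18 and 23 all left out, edgeR called no gene of either list.

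Of 11 receptors and coreceptors, edgeR called 0 at 2 weeks (3.31% of all genes), and 1 had an unadjusted p under 0.05 (23.4%). DESeq2 called 1 (11.6%) and limma on log2(FPKM + 1) called 2 (13.5%), and the list's median was -0.25. With the length trend removed the median was -0.06. The lowest p there was that of Acvr1, a BMP and activin type I receptor, at 9.64 ± 1.42 CPM at 2 weeks, 8.87 ± 2.48 CPM at 5 weeks and 16.3 ± 1.68 CPM in TAA (log2 change -0.75 ± 0.20 at 2 weeks, adjusted p = 0.0706). With both courses pooled it fell by 0.81 ± 0.17 (edgeR adjusted p = 0.0431), against 1.13% of all genes called lower. That call was lost without TAA replicate 12, 13 or 14, where the pooled fit called 0 of all genes. At 5 weeks 1 receptor rose and 10 were not called, against 0.686% of all genes called higher (list median 0.11, from -0.11 to 0.28 over the alternatives). This was Acvr2b, an activin type II receptor, at 5.79 ± 1.70 CPM at 5 weeks and 2.37 ± 0.569 CPM in TAA (log2 change 1.29 ± 0.25, adjusted p = 0.0475), higher under all 17 alternatives and called in 3, among them only the fit without replicate 27 of those that leave out 1 library. Of 17 Smads and their intracellular regulators, edgeR called 0 at either time (3.31% and 1.29% of all genes). At 2 and 5 weeks, 4 and 5 had an unadjusted p under 0.05 (23.4% and 19.2% of all genes). DESeq2 called 0 and 2 (11.6% and 8.4%) and limma 3 and 1 (13.5% and 6.8%), with medians of -0.23 and -0.04. With the length trend removed the 2-week median was -0.06. Skil, a repressor of Smad transcription, had a log2 change of -0.61 ± 0.21 at 2 weeks (adjusted p = 0.130). Its change was -0.36 with the length trend removed (edgeR adjusted p = 0.247). The BMP-responsive Smad9 was at 9.28 ± 2.67 CPM at 5 weeks and 4.49 ± 1.10 CPM in TAA (log2 change 1.05 ± 0.27, adjusted p = 0.0813). Between 5 and 2 weeks edgeR called none of the genes of the 5 lists, against 0.0204% of all genes. Smad9 had a log2 change of 1.11 ± 0.27 there (edgeR adjusted p = 0.142).

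**Figure D5:**
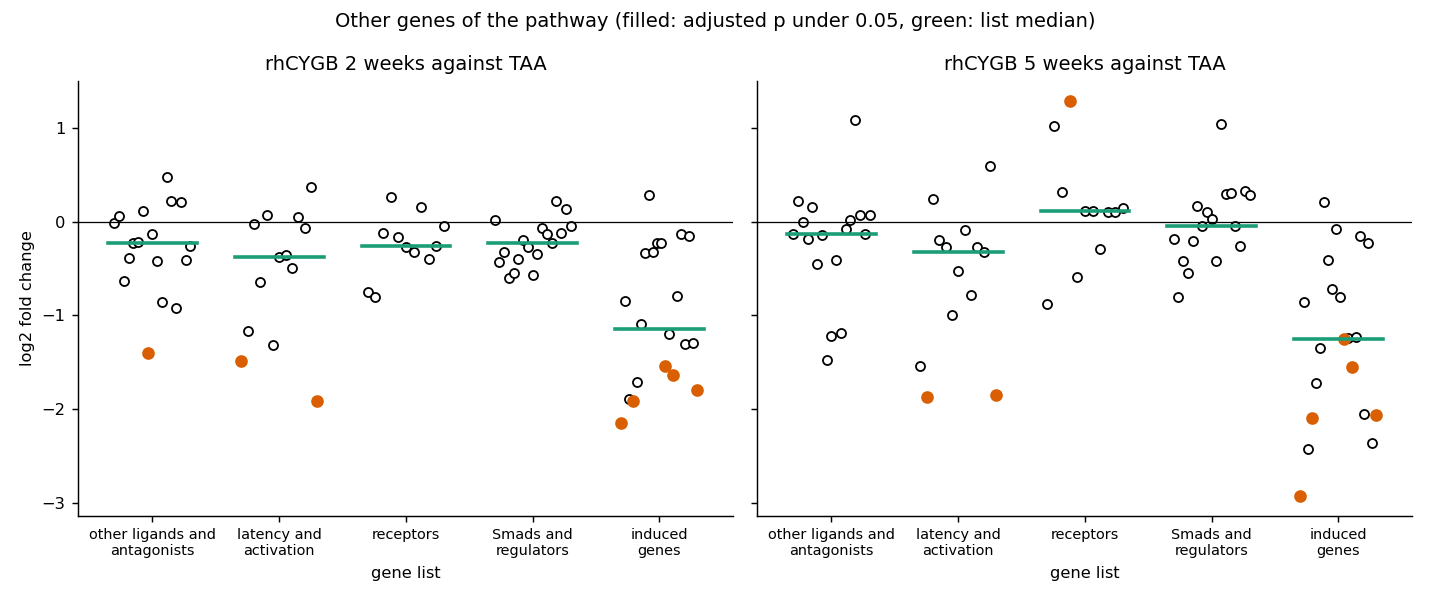
Log2 fold changes by edgeR of the other pathway genes at 2 weeks (left) and 5 weeks (right) against TAA, by list, with filled points for genes called at an adjusted p under 0.05 and a green line at each list's median. The induced genes lie lowest, with medians of -1.14 and -1.25, and the only filled point above 0 is Acvr2b at 5 weeks.

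Markers of cell types that make these proteins moved in part with them, and in whole liver fewer cells of a type and less RNA per cell cannot be told apart. The 10 stellate cell and myofibroblast markers summed to 472 to 640 CPM at 2 weeks, 329 to 577 CPM at 5 weeks and 661 to 1007 CPM in TAA, with no overlap with TAA. Col1a1 alone averaged 96.3, 67.0 and 359 CPM in that order, and so made up much of the differences between the sums. Both Col1a1 and Acta2 are also in the list of induced genes. Of the 10 markers, 1 (Acta2) was called lower at each time, against 1.34% and 0.604% of all genes. Among genes that define stellate cells, Des had a log2 change of -0.08 ± 0.32 at 2 weeks and -1.30 ± 0.33 at 5 weeks, and Pdgfrb -0.51 ± 0.24 and -0.78 ± 0.24, none of them called. The other markers of the list were not called either, and some had positive log2 changes. Col1a1 was at -1.90 ± 0.56 and -2.42 ± 0.57 at 2 and 5 weeks, and Rgs5 at -0.46 ± 0.20 and -0.41 ± 0.20. Colec11 was at 0.49 ± 0.18 and 0.39 ± 0.18, Ecm1 at 0.58 ± 0.25 and -0.07 ± 0.25, Reln at -0.26 ± 0.15 and 0.14 ± 0.15, Dcn at -0.24 ± 0.20 and -0.13 ± 0.20, and Lrat at -0.42 ± 0.27 and -0.16 ± 0.27. The list's median was -0.34 at 2 weeks and -0.28 at 5 weeks. The 6 cholangiocyte markers summed to 271 to 375 CPM, 110 to 367 CPM and 329 to 536 CPM in the same order of groups, most of it from Spp1, which averaged 305 CPM over the 9 libraries. The 5 mesothelial markers summed to 2.92 to 5.35, 0.927 to 4.66 and 4.45 to 8.43 CPM, with up to 2 of 5 at 0 in a 5-week library. None of these 11 markers was called. The 7 T and NK cell markers summed to 6.66 to 10.6 CPM at 2 weeks, 2.31 to 8.60 CPM at 5 weeks and 2.34 to 3.02 CPM in TAA, with up to 1 of 7 at 0 at 5 weeks. Of 6 tested, 2 (Cd8b1 and Nkg7) were called higher at 2 weeks, against 1.98% of all genes. The 9 Kupffer cell and macrophage markers summed to 505 to 731, 400 to 516 and 466 to 560 CPM, and the 8 sinusoidal endothelial markers to 165 to 179, 132 to 161 and 156 to 175 CPM. Of the Kupffer list, 1 of 9 (Clec4f) was called higher at 2 weeks, against the same 1.98% of all genes. Platelet markers summed to at most 10.8 CPM and those of skeletal muscle to at most 2.51 CPM in any library, with up to 5 of 7 muscle genes at 0. The part of any of these cell types in the values of the 10 genes was not tested.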

How the data were processed

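Poly(A) RNA of 9 mouse liver libraries was sequenced in paired ends. The authors aligned reads to mm10 with HISAT2 2.1.0 and assembled them with StringTie 1.3.4d after FastQC 0.11.7, per the submitters' processing notes. The deposited table gives estimated counts, stored as whole numbers, and FPKM for 36780 transcript models in each library. How the authors turned StringTie's output into counts, and whether strand was used, is not given in the sources used here. Counts and FPKM were also deposited for each of 24532 genes, and these gene values were used here as given. Genes were kept by filterByExpr (minimum count 10, minimum total 15), scaled by TMM and fitted with edgeR 4.0.16 in R 4.3.3 (quasi-likelihood test, 3 groups in 1 fit with 6 residual degrees of freedom, Benjamini-Hochberg over all 14731 genes, calls at an adjusted p under 0.05), and the pooled comparison was a second fit. The script was tested on simulated data. Without a length trend, edgeR made 3 to 8 false calls among 135 to 164 in each comparison, and limma 3 to 6 among 107 to 142. DESeq2 made 16 to 20 among 152 to 184. With a trend added at 2 weeks most calls by edgeR, DESeq2 and limma were false, and few were once the trend was removed. The added trend had a set size not fitted to these data, so its share of false calls need not be that of the real calls. With the trend removed from the real 2-week data, edgeR called 637 genes, 354 of them among the 488 of the main fit. The real 2-week data carry a length trend, so 2-week calls are to be read with their value after its removal. Standard errors were taken from the F statistic. Alternatives were DESeq2 1.42.0, limma 3.58.1 on log2(FPKM + 1), library totals, upper quartile scaling, no filter, removal of the length trend, fits of 2 groups and leaving out each library, with, after seeing the data, replicates 17, 18 and 23 left out at once. Depth was 55655727 to 87289945 estimated reads a library, and precision was judged from the spread between replicates. Besides the 10 members, the genes named are those called with a mean of at least 1 CPM in each pathway list (up to 4 by size, otherwise that of lowest p) and the 3 most correlated with each member. The members and lists were chosen with earlier results of these data known. Cell type lists were summed in CPM. Some genes that this rule names are not reported here.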

Additional observations from a re-analysis of the deposited data

How the results depend on the processing

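Across the 10 genes and 17 alternatives at 2 weeks, 143 of 170 values kept direction and side of the threshold, 8 lost the call, 8 gained one and 11 changed sign. The same counts were 154, 0, 8 and 8 of 170 at 5 weeks, 152, 0, 3 and 15 of 170 between 5 and 2 weeks, and 134, 0, 19 and 7 of 160 with both courses pooled. The cause of these changes was not tested. All genes called at 2 weeks numbered 488 (291 higher, 197 lower), against 1722 on library totals (110 higher, 1612 lower), 1713 with DESeq2, 1983 with limma, 637 with the length trend removed (354 of them among the 488), 1023 with only the groups compared, 12 without replicates 17, 18 and 23, and 1 to 1095 on leaving out 1 library. At 5 weeks they numbered 190, against 504 on library totals (38 higher, 466 lower), 77 with upper quartile scaling, 1188 with DESeq2, 105 with no filter, 1001 with limma, 601 with the length trend removed, 1 with only the groups compared, 7 without the 3 replicates and 0 to 240 on leaving out 1. Between 5 and 2 weeks they numbered 3, against 788 with DESeq2, 5 with limma, 6 with the length trend removed, 0 with only the groups compared, 5 without the 3 replicates and 1 to 1889 on leaving out 1. With both courses pooled they numbered 295, against 1163 on library totals (58 higher, 1105 lower), 1230 with DESeq2, 1641 with limma, 580 with the length trend removed and 0 to 662 on leaving out 1. Of the 10 genes, those called at 2 weeks were 4 on library totals, 2 with DESeq2, 5 with limma, 0 without the 3 replicates and 0 to 1 on leaving out 1. At 5 weeks they were 2, 3 and 3 on library totals, with DESeq2 and with limma, and 0 on leaving out any 1. Between 5 and 2 weeks they were 1 with DESeq2 and 0 to 2 on leaving out 1. With both courses pooled they were 3, 3 and 5 on library totals, with DESeq2 and with limma, 1 with the length trend removed, 3 without the 3 replicates and 0 to 3 on leaving out 1.

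Other sign changes, most of them on values near 0, were as follows, with ranges covering the fits that leave out 1 library each. At 2 weeks Inhbc was at -0.27 on library totals, -0.26 with limma, -0.031 with the length trend removed and from -0.021 to 0.12 on leaving out 1. Fst was at -0.30 on library totals, -0.017 with upper quartile scaling, -0.18 with limma, -0.059 without the 3 replicates and from -0.17 to 0.15 on leaving out 1. Tgfb2 was at 0.057 with the length trend removed. At 5 weeks Inhbe was at -0.052 on library totals, -0.081 with limma, -0.15 without the 3 replicates and from -0.16 to 0.43 on leaving out 1. There Tgfb2 was at 0.032 without the 3 replicates and from -0.56 to 0.014 on leaving out 1, and Inhbc from -0.34 to 0.10. Between 5 and 2 weeks Tgfb2 was at 0.10 on library totals, 0.022 with limma, 0.16 without the 3 replicates and from -0.40 to 0.16 on leaving out 1. Inhbb was at -0.12 with the length trend removed and from -0.46 to 0.35 on leaving out 1, and Inhbc from -0.39 to 0.048. Ltbp2 was at 0.53 without the 3 replicates and from -0.76 to 0.20 on leaving out 1, and Tgfb3 at 0.10 without the 3 replicates. With both courses pooled Inhbc was at 0.0040 with DESeq2 and from -0.094 to 0.070 on leaving out 1, and Fst from -0.28 to 0.047. No paired analysis was possible because the groups share no replicate number. Depth was low for Tgfb2, with 60 to 140 reads a library, and Inhbb, with 66 to 324.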
